A study of Mus musculus with 28 samples.

Results

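Genes for the protein subunits of the mitochondrial ribosome were followed through 28 RNA-seq libraries of mouse hypothalamus. They were taken by symbol, as every gene named Mrps or Mrpl with a number and at most 1 letter, which gave 78 of the 55487 genes in the count table, 29 Mrps and 49 Mrpl. All mice carried LepRb-eGFP-L10a, a ribosomal protein fused to a fluorescent tag and made in cells with the long leptin receptor isoform, LepRb. From each of 14 lysates, tagged ribosomes were pulled down with their RNA (bead fraction), and the supernatant left behind was kept as the depleted fraction. In each fraction, ob/ob mice, which lack functional leptin, gave 1 leptin and 2 vehicle libraries at 10 h. Wild-type (WT) mice gave 3 leptin libraries and 1 vehicle library at 10 h, and 3 leptin and 4 vehicle libraries at 3 h. Leptin was metreleptin at 5 mg/kg, injected intraperitoneally. The vehicle is PBS in the sample labels and saline in the protocol. The mice were male and female, 10 to 13 weeks old, and had no food from the start of the light phase.

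The mitochondrial ribosome translates the few mRNAs that mitochondrial DNA still encodes, all of them for subunits of the respiratory chain and the ATP synthase. Its rRNAs also come from mitochondrial DNA, but its proteins are encoded in the nucleus, made on cytosolic ribosomes and imported. Some descend from bacterial ribosomal proteins, and others are found only in mitochondria. Because the tag sits on a cytosolic ribosome, the bead fraction holds the mRNAs of these subunits as they are loaded for translation in the cytosol, not the mitochondrial ribosomes themselves.

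Libraries held 21277982 to 42267040 counted reads in the bead fraction and 19649105 to 41804049 in the depleted fraction. The leptin receptor gene Lepr had 6.52 to 12.4 CPM (reads per 1000000 counted, scaled by TMM) in the bead fraction and 1.45 to 3.15 CPM in the depleted fraction. All 12 markers each of astrocytes, oligodendrocytes and microglia were lower in the bead fraction, with median log2 fold changes of -1.20, -1.59 and -1.68. Summed astrocyte markers ran from 777 to 1630 CPM in bead and from 1677 to 2135 CPM in depleted libraries, and summed oligodendrocyte markers from 1136 to 3503 CPM in bead and from 4663 to 6421 CPM in depleted libraries. Summed microglia markers ran from 26.2 to 91.5 CPM in bead and from 79.0 to 157 CPM in depleted libraries. Endothelial markers went the other way, 4 of 6 being higher in the bead fraction, with sums of 8.30 to 84.6 CPM in bead (highest in the WT 3 h vehicle lysates f1 and f3) and 9.93 to 21.96 CPM in depleted libraries. The sums of 8 neuron markers overlapped between fractions, at 7037 to 8771 CPM in bead and 6230 to 7640 CPM in depleted libraries. Pituitary hormone genes stood out in 3 lysates. In the WT 3 h leptin lysate f2 they summed to 1304 CPM in bead and 3068 CPM in depleted libraries. In the ob/ob leptin lysate, the only one of its group, they summed to 27.4 CPM in bead and 147 CPM in depleted libraries, and in the WT 3 h vehicle lysate m3 to 70.5 CPM in bead and 284 CPM in depleted libraries. The other lysates had up to 3.47 CPM in bead and 7.07 CPM in depleted libraries. In bulk tissue, fewer cells of a type and less RNA per cell cannot be told apart. Replicates are separate lysates, and the labels do not tell if a lysate was 1 mouse or a pool, so p-values measure the spread between lysates.

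Of the 78 genes, 77 had enough reads to be tested. The exception was Mrpl53, with 0 to 0.0796 CPM in bead and 0 to 0.111 CPM in depleted libraries, a gene of 900 bases on chromosome 6 that shares 88.0% of its exon length with annotated neighbours. Exons of 33 members overlap those of another gene, 28 of them on the opposite strand, and the library kit does not mark strand. Most of the exon length is shared in Mrpl53, in Mrps34 (77.8%, with Nme3 and Mapk8ip3) and in Mrps25 (69.8%, with Nr2c2), so their counts are uncertain. Those of Mrpl23, Mrpl27, Mrpl48 and Mrps36 are uncertain too, because each has a named pseudogene.

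Per length, the genes were unequal. As TPM (levels corrected for the length of all annotated exons of a gene), the median member stood at 77.5 TPM in bead and 62.2 TPM in depleted libraries, and the median of all tested genes at 11.5 TPM in depleted libraries. Mrpl41, a large-subunit protein found only in mitochondria, was the most abundant, with 417 ± 52.1 TPM in bead and 259 ± 10.8 TPM in depleted libraries (SD, n = 14 each). Mrpl12, which with Mrpl10 forms the stalk that recruits translation factors, had 262 TPM in bead and 212 TPM in depleted libraries. Mrps12, a protein of the decoding centre, had 291 TPM in bead and 208 TPM in depleted libraries. Mrpl34 and Mrpl10 followed in the depleted fraction at 195 and 189 TPM. At the other end, after Mrpl53, stood Mrpl23 with 1.56 TPM in bead and 2.25 TPM in depleted libraries, and Mrpl33 with 13.4 TPM in bead and 9.36 TPM in depleted libraries. Mrps30 had 14.5 TPM in bead and 13.6 TPM in depleted libraries, and Mrps10 had 13.9 TPM in bead and 14.3 TPM in depleted libraries. Mrpl23 sits at the exit of the peptide tunnel, and how many of its reads its pseudogene took is not known.

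The first comparison asks which mRNAs are more abundant on the tagged ribosomes of LepRb cells than in the supernatant left behind. The fractions differ in cell type and in binding to ribosomes at the same time, and these cannot be told apart here. The mitochondrial ribosome genes were higher in the bead fraction almost as a block. With edgeR's quasi-likelihood test, each lysate as its own block and Benjamini-Hochberg adjustment over all genes at 0.05, 74 of 77 members were higher in bead than depleted libraries, 1 was lower and 2 did not pass. Of all 19682 genes tested, 38.6% were higher and 39.3% lower. The members' median log2 fold change was 0.52, against -0.01 for all genes, whose middle 50% ran from -0.55 to 0.37. Summed over members, the level was 3558 to 5412 CPM in bead libraries and 2866 to 3290 CPM in depleted libraries, with no overlap. In 61 of 77 members every one of the 14 lysates had more in its bead than in its depleted library. The share of all genes that did so is not given here, so this count has no background beside it.

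**Figure D1:**
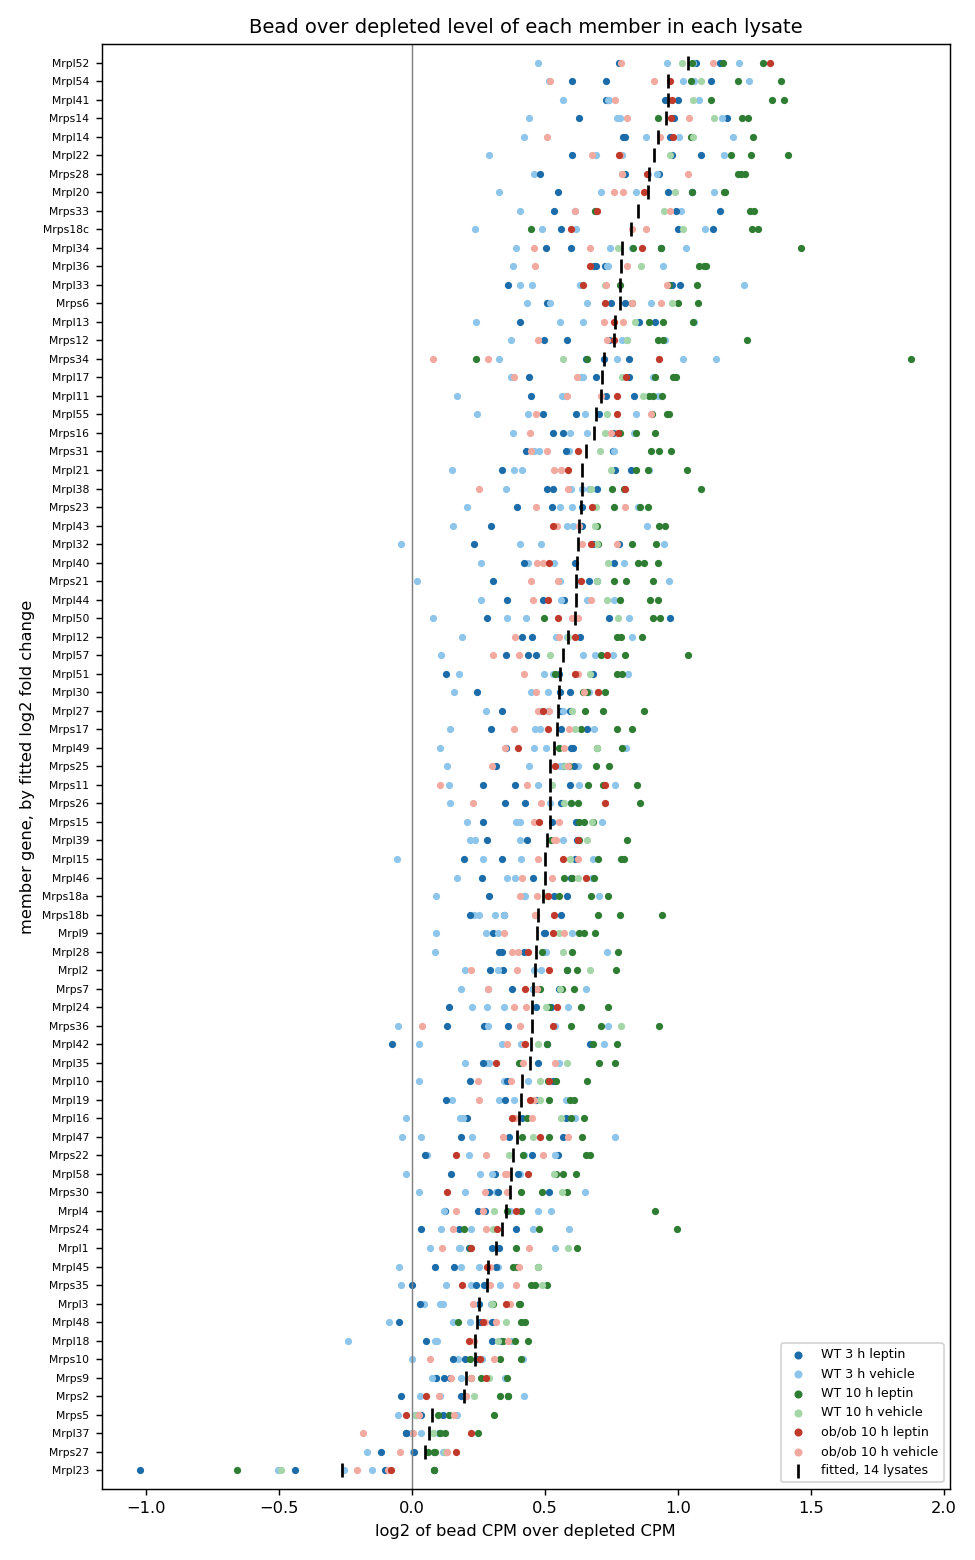
Each row is 1 of the 77 members tested and each point 1 of 14 lysates, placed at the log2 ratio of its bead CPM over its depleted CPM and coloured by group. The black bar is the fold change fitted over all lysates, from 1.04 for Mrpl52 at the top to -0.26 for Mrpl23 at the bottom, and nearly all points lie to the right of 0.

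Mrpl52 led the list, a large-subunit protein found only in mitochondria (chr14:54426909-54429756, GRCm38, plus strand). Its level was 50.0, 71.9 and 81.6 CPM in bead libraries and 27.7, 33.4 and 37.2 CPM in depleted libraries (lowest, median and highest of 14), so the fractions did not overlap. The log2 fold change was 1.04 (SE 0.0572, adjusted p = 3.16e-12). Mrpl54, likewise without a bacterial relative, had 40.02, 60.02 and 79.4 CPM in bead and 26.0, 30.9 and 34.8 CPM in depleted libraries. Its log2 fold change was 0.96 (SE 0.0661, adjusted p = 7.89e-11). Mrpl41 had 81.2, 112 and 152 CPM in bead and 52.1, 56.8 and 61.5 CPM in depleted libraries, again with a log2 fold change of 0.96 (SE 0.058, adjusted p = 1.14e-11). For these genes the lowest bead library stood above the highest depleted library.

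The same held for Mrps14, a protein of the head of the small subunit with a bacterial homolog, with 76.7, 109 and 155 CPM in bead and 50.4, 57.1 and 64.4 CPM in depleted libraries. Its log2 fold change was 0.96 (SE 0.0588, adjusted p = 1.56e-11). Mrpl14, at the face where the subunits meet, had 30.2, 43.4 and 51.3 CPM in bead and 17.4, 22.3 and 25.4 CPM in depleted libraries, a log2 fold change of 0.93. Mrpl22, which helps to line the peptide exit tunnel, had 17.6, 25.2 and 31.6 CPM in bead and 11.8, 13.3 and 15.7 CPM in depleted libraries, a log2 fold change of 0.91. None of these genes overlapped between fractions, but they were named for their high fold changes, and no like share of all genes is given. The 10 members with the highest fold changes were completed by Mrps28 (0.89), Mrpl20 (0.89), Mrps33 (0.85) and Mrps18c (0.83), all higher in the bead fraction.

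At the bottom of the list the fractions were alike or turned round. Mrpl23 (chr7:142532686-142540747, plus strand) had 1.11, 2.31 and 2.94 CPM in bead and 2.16, 2.69 and 3.31 CPM in depleted libraries. It was the 1 member lower in the bead fraction, by a log2 fold change of -0.26 (SE 0.0923, adjusted p = 0.0138), and was higher in the bead fraction in only 3 of 14 lysates. Mrps27, a small-subunit protein of a family that binds RNA (chr13:99344786-99415562, plus strand), had 27.1, 30.0 and 33.2 CPM in bead and 26.1, 29.7 and 30.9 CPM in depleted libraries. Its fractions overlapped, and its log2 fold change of 0.05 (SE 0.0358) did not pass (adjusted p = 0.219). Mrpl37, a large-subunit protein found only in mitochondria, had 44.9, 55.5 and 63.4 CPM in bead and 49.4, 52.2 and 56.5 CPM in depleted libraries, a log2 fold change of 0.06 (SE 0.035, adjusted p = 0.102). Mrps5 passed narrowly, with 54.1, 59.9 and 70.3 CPM in bead and 54.3, 57.0 and 59.8 CPM in depleted libraries, a log2 fold change of 0.08 (adjusted p = 0.0418). It did not pass with DESeq2 (0.04, adjusted p = 0.29) or without any of 7 single lysates, with the highest adjusted p, 0.301, without the ob/ob vehicle lysate 2.

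The other members among the 10 lowest fold changes passed the test: Mrps2 at 0.20, Mrps9 at 0.20, Mrps10 at 0.24, Mrpl18 at 0.24, Mrpl48 at 0.25 and Mrpl3 at 0.25. Under scaling by library totals instead of TMM the median of all genes moved by -0.18, and Mrps27, Mrpl37 and Mrps5 then stood at -0.13, -0.11 and -0.10. In TPM, which carry no TMM scaling, each of the 10 lowest was lower in the bead fraction, for example Mrpl3 (45.7 TPM in bead and 46.6 TPM in depleted libraries). The direction of these small differences thus depends on the scaling.

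By position in the ribosome, the fold change was nearly the same. Of small-subunit proteins with a bacterial homolog all 16 rose (median 0.53), Mrps5 only narrowly and not under every alternative, as given above. Of the 10 small-subunit proteins found only in mitochondria 9 rose (median 0.52). In the large subunit 29 of 30 with a bacterial homolog rose and 1 fell (median 0.53), and 19 of the 20 tested without one rose (median 0.55). Mrps36, which despite its name belongs to the 2-oxoglutarate dehydrogenase complex and not to the ribosome, was at 0.45 (SE 0.0779, adjusted p = 2.43e-05).

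Around the functional centres, Mrpl23 at the exit of the peptide tunnel was lower in the bead fraction, at -0.26. The other members named here spanned 0.29 to 0.91. On the stalk that takes up translation factors, Mrpl11 at its base rose by 0.71 and Mrpl12 by 0.59, while Mrpl10, which ties Mrpl12 to the ribosome, rose by 0.41. Mrpl1, of the stalk on the opposite side where spent tRNA leaves, rose by 0.32. At the exit tunnel Mrpl22 rose by 0.91, Mrpl24 by 0.45 and Mrpl47 by 0.40, and Mrpl45, which anchors the ribosome to the inner membrane, by 0.29. Mrps12 in the decoding centre rose by 0.76, with 68.3, 92.4 and 123 CPM in bead and 42.9, 54.9 and 62.2 CPM in depleted libraries. Mrps7 in the head rose by 0.46. Mrpl58, a release factor that became part of the large subunit, rose by 0.37. The adjusted p of each of these members other than Mrpl23 was 4.92e-06 or lower (edgeR quasi-likelihood test).

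Mammals carry 3 copies of the bacterial S18 gene, and the 3 proteins do not share a site. Mrps18c, with 15.7, 26.9 and 35.7 CPM in bead and 12.7, 14.0 and 17.2 CPM in depleted libraries, rose by 0.83. Mrps18b had 11.9, 13.6 and 18.9 CPM in bead and 9.05, 10.3 and 12.2 CPM in depleted libraries, a rise of 0.47. Mrps18a, which sits in the large subunit, rose by 0.49. For Mrps18b and Mrps18c the bead and depleted libraries came close but overlapped only at the edges, and 23.2% of the exon length of Mrps18c and 30.5% of that of Mrps18b lie under other annotated genes. Mrps30, another large-subunit protein with a small-subunit name, rose by 0.37. Some genes whose human counterparts are mutated in inherited mitochondrial disease rose, as nearly all members did. Among them Mrps16 rose by 0.68, Mrpl44 by 0.62, Mrps22 by 0.38 and Mrpl3 by 0.25.

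**Figure D2:**
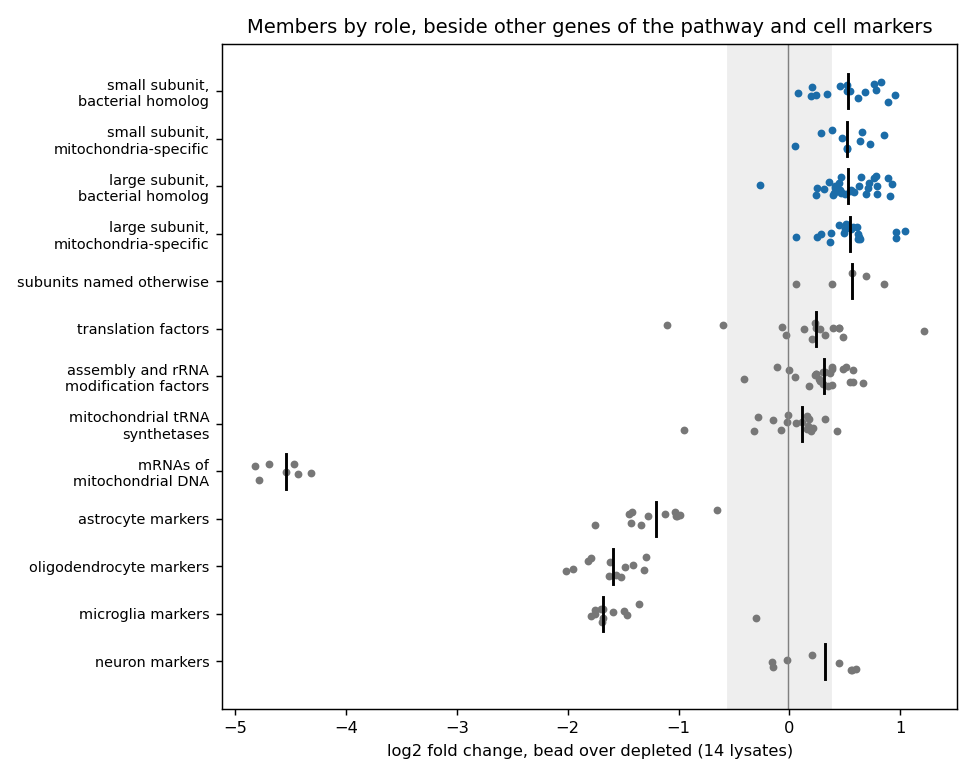
Points are genes, grouped by role, at their fitted log2 fold change, bead over depleted, over 14 lysates. The 4 groups of ribosomal proteins are in blue, other genes in grey, black bars are group medians and the grey band holds the middle 50% of all genes tested. The blue groups centre between 0.52 and 0.55, mRNAs of mitochondrial DNA near -4.54, and the medians of the glial marker lists between -1.20 and -1.68.

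Promoters of the members are shown because nuclear genes for mitochondrial proteins are known for binding sites of NRF1, ETS-family factors (GABP among them) and YY1. RefSeq (GRCm38.p6) gave a window from 250 bases before to 50 after the start for 69 of the 78 members, and 32851 windows in all. The NRF1 motif CGCATGCGC, on either strand, was in 7 of the 69 members (10.1%). It was in 1.75% of all windows, and 3.41% of the 13496 tested genes with a window had it in at least 1. Counted by window, it was in 7 of the 75 windows of members (9.33%). The ETS motif CCGGAAGT was in 12 members (17.4%), or 16% of their windows, against 7.43% of tested genes and 3.89% of all windows. The YY1 motif AAGATGGCG was in 8 members (11.6%), or 10.7% of their windows, against 2.81% of tested genes and 1.40% of all windows. The other motifs searched were the SP motif GGGCGG in 34 members (49.3%, against 63.1% of tested genes, and 52.0% of their windows, against 35.7% of all windows), the E-box CACGTG in 5 (7.25%, against 10.9% of tested genes, and 9.33% of their windows, against 7.15%) and the STAT motif TTCNNNGAA, of the factors that act below the leptin receptor, in 6 (8.70%, against 8.23% of tested genes, and 8.0% of their windows, against 8.30%). A match is a run of letters and no evidence of binding, and a part of these motifs in the fold changes between fractions was not tested.

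Stretches of 6 of these promoters follow, 5′ to 3′ on the strand of the gene, with the motif letters in capitals. NRF1 motifs are shown in the promoters of Mrpl32 (chr13:14613038-14613137, minus strand), Mrpl9 (chr3:94443276-94443335, plus strand) and Mrpl22 (chr11:58171604-58171663, plus strand), with neighbouring matches on both strands printed as 1 run.
Mrpl32: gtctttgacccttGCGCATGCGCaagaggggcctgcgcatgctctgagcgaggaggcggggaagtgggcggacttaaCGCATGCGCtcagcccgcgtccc
Mrpl9: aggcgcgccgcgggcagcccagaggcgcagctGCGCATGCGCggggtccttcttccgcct
Mrpl22: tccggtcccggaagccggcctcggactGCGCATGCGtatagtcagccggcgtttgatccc

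The ETS motif, read on the other strand, is shown for Mrpl52 (chr14:54426869-54426923, plus strand), which had the highest fold change, bead over depleted. Mrps27 (chr13:99344726-99344810, plus strand), which did not differ between fractions beyond its error, holds both an ETS and a YY1 motif. Mrps11 (chr7:78783001-78783061, plus strand) holds a YY1 motif in a stretch that also lies within its neighbour Mrpl46, read in the opposite direction.
Mrpl52: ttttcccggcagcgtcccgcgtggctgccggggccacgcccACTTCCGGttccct
Mrps27: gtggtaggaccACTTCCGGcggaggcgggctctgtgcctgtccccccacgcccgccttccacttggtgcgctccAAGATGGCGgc
Mrps11: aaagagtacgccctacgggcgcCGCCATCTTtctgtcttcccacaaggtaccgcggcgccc

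Fold changes were larger for members with a short coding sequence. Coding lengths of the members run from 261 to 1326 bases, with a median of 588. Across the 77 members the log2 fold change, bead over depleted, and the log of the coding length had r = -0.58 and a rank correlation of -0.62, a description across genes measured in the same libraries. Across 15601 coding genes r was -0.22. The 26 members under 500 bases had a median log2 fold change of 0.73, against 0.39 for 1343 genes of that length. For 500 to 1000 bases the median was 0.47 for 40 members and 0.22 for 3519 genes. For 1000 to 2000 bases it was 0.32 for 11 members and 0.07 for 6001 genes. In each class the members' median lay above that of all genes of like length, of which 62.4%, 54.6% and 45.0% were higher in the bead fraction, from the shortest class to the longest. The part of length in the members' rise was not tested further.

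**Figure D3:**
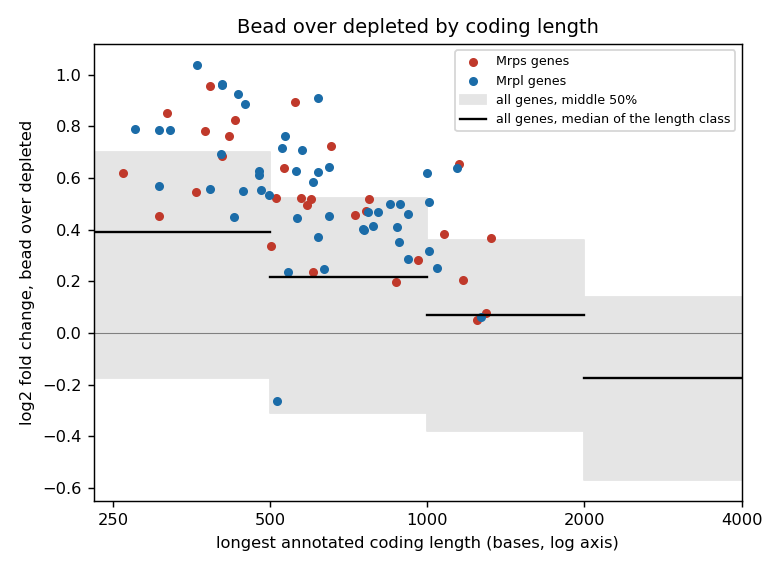
Each point is a member, placed by its longest annotated coding length (log axis) and its fitted log2 fold change, bead over depleted, with Mrps genes in red and Mrpl genes in blue. Black lines and grey boxes give the median and the middle 50% of all genes in 4 length classes; the shortest members lie between 0.45 and 1.04 and the longest near or below 0.65.

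The rest of the mitochondrial translation system was less uniform. Of 5 subunits with other names 4 rose in the bead fraction, Chchd1 by 0.86, Aurkaip1 by 0.69, Gadd45gip1 by 0.57 and Dap3 by 0.38, and Ptcd3 stood at 0.06 (adjusted p = 0.177). Of 15 translation factors and regulators 11 rose and 2 fell, with a median of 0.24. Slirp, which stabilises mitochondrial mRNAs, rose by 1.21 (adjusted p = 1.42e-08). Gfm2, which takes spent ribosomes apart, stood at -0.60 (adjusted p = 2.14e-08) and Guf1, a relative of the bacterial elongation factor LepA, at -1.10 (adjusted p = 1.18e-07), both lower in the bead fraction.

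Of 24 assembly and rRNA modification factors 20 rose and 1 fell, with a median of 0.32. The rRNA methyltransferase Mrm2 rose by 0.66 and the assembly factor Mettl17 was lower at -0.41. Among 17 mitochondrial tRNA synthetases 9 rose and 4 fell, with a median of 0.11. All 7 testable mRNAs of mitochondrial DNA were lower in the bead fraction, with a median of -4.54 and summed levels of 103 to 4034 CPM in bead and 6757 to 10843 CPM in depleted libraries. The highest bead value was that of the ob/ob vehicle lysate 2, which stood apart: the next highest was 977 CPM and the median of the 14 bead libraries 306 CPM.

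Across sets of mice the bead fraction was higher each time. In ob/ob mice at 10 h 64 of 77 members were higher in the bead fraction and none lower, with a median of 0.50, against 23.5% of all genes higher and 21.8% lower (45.4% in all). In WT mice at 10 h 73 were higher and none lower, with a median of 0.68, against 31% and 31.7% of all genes (62.7% in all). In WT mice at 3 h 73 were higher and 1 lower, Mrpl23 at -0.35 (adjusted p = 0.036), with a median of 0.46, against 33.1% and 31.9% of all genes (65% in all). Mrpl52 and Mrps14 led in ob/ob mice at 1.15 and 0.95, Mrpl41 and Mrpl54 in WT mice at 10 h at 1.18 and 1.16, and Mrpl52 and Mrpl54 in WT mice at 3 h at 0.97 and 0.89.

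Tests of the differences between these sets called no member, with edgeR or DESeq2. The bead over depleted log2 fold change was larger in WT mice at 10 h than at 3 h in 76 of 77 members, by a median of 0.21, but none passed, 16 had an unadjusted p under 0.05, and 0% of all genes were called. The lowest p belonged to Mrps35, with a difference of 0.31 (adjusted p = 0.251). Between ob/ob and WT mice at 10 h the difference was below 0 in 74 of 77 members, with a median of -0.16. None passed, 3 had an unadjusted p under 0.05, and 0.0102% of all genes were called. Both shares of all genes are of genes called after adjustment. No share of all genes at an unadjusted p under 0.05, or by sign, is given, so the members' counts of these kinds have no background. Mrpl36 came nearest at -0.33, followed by Mrpl40 at -0.31 and Mrps31 at -0.27 (adjusted p = 0.904 for each). Each of the 3 sets of mice was sequenced in a run of its own, so time, genotype and run cannot be told apart.

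The rise also varied from lysate to lysate. The median member log2 ratio, bead over depleted, was lowest in the WT 3 h vehicle lysate f1, at 0.17 with 66 of 77 members higher in the bead library, and highest in the WT 10 h leptin lysate 1, at 0.73. That ordering ran against glial RNA in the bead libraries; f1 also had the highest endothelial sum, 84.6 CPM. The mean log2 CPM of the members was 5.33 in the bead library of f1, whose mean log2 CPM over 36 glial markers was the highest of the bead libraries, 5.25. In the WT 10 h leptin lysate 1 the members stood at 5.92 and the glial markers were at their lowest, 3.36.

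Over the 14 bead libraries Pearson's r between these means was -0.93 and Spearman's rho -0.91, and r was -0.85 without the 2 libraries farthest from the median of the glial markers. Among the 7 bead libraries of WT mice at 3 h, sequenced in 1 run, r was -0.94 and rho -0.86. In the depleted libraries r was -0.22 and rho -0.05 (n = 14). Their glial means varied less, with an SD of 0.165 (5.38 to 5.94), against 0.534 (3.36 to 5.25) in bead libraries. The r of the 2 fractions thus cannot be compared directly. The members stood between 5.02 and 5.22 in the depleted libraries, below every bead library. No p is given, since the members were chosen as a set with results known, and the part of glial RNA in the rise of the members was not tested.

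**Figure D4:**
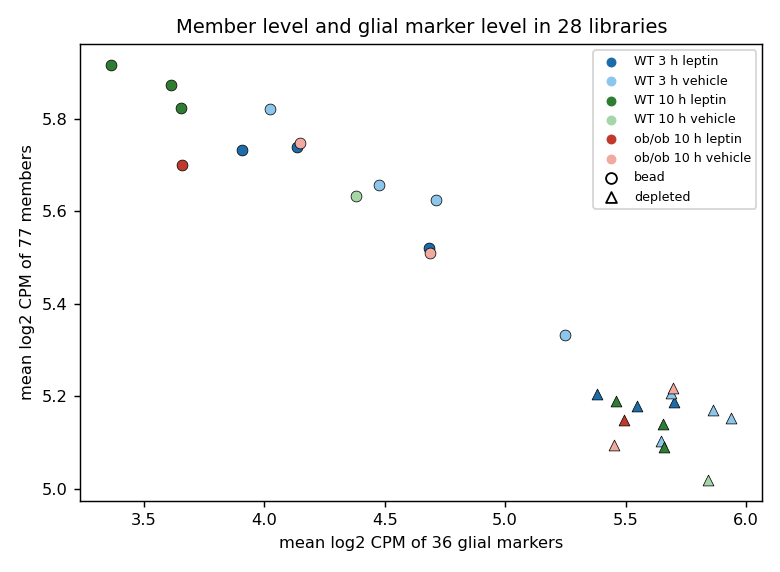
Each symbol is 1 of 28 libraries, circles for bead and triangles for depleted, coloured by group, with the mean log2 CPM of 36 glial markers on the x axis and of the 77 members on the y axis. Bead libraries fall along a line from 5.92 at low glial level to 5.33 at high glial level, and depleted libraries stay between 5.02 and 5.22.

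Members also differed in how steady the ratio was. Mrps9, of the head of the small subunit, was the steadiest, with an SD of 0.0948 over 14 lysates for the log2 ratio. Mrps34 was the least steady, with an SD of 0.454. Its fitted rise of 0.72 (SE 0.112, adjusted p = 1.49e-05) included a log2 ratio of 1.88 in the WT 10 h leptin lysate 3, and its exons lie mostly under Nme3 and Mapk8ip3.

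The second comparison asks what leptin did within each fraction. After the filter on low counts, no member passed the test in any of the leptin comparisons with edgeR, DESeq2 or limma's voom. Here and below, shares of all genes are of genes called after adjustment. Counts of members above 0 or at an unadjusted p under 0.05 have no like share of all genes beside them. In bead libraries at 10 h (4 leptin, 3 vehicle, with genotype as a term) the median log2 fold change of the 77 members was 0.11 and 71 were above 0, but 0 were called and 6 had an unadjusted p under 0.05; 0.022% of all genes were called. Mrps34 showed the widest gap, with 22.3, 23.9 and 57.7 CPM in WT leptin and 36.4 CPM in ob/ob leptin libraries, against 20.9 CPM in the WT vehicle and 24.1 and 17.7 CPM in the ob/ob vehicle libraries. Leptin and vehicle overlapped across genotypes but not within them. Its log2 fold change of 0.75 (SE 0.318) had an adjusted p of 0.531, as had Mrpl38 at 0.34 and Mrps11 at 0.36. Without the filter on low counts Mrps34 did pass (adjusted p = 0.00152). The members' median turned to -0.16 with the glial marker level as a term, and was 0.18 without the ob/ob vehicle lysate 1 and 0.07 without the ob/ob vehicle lysate 2.

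In depleted libraries at 10 h the median was 0.05, with 62 of 77 above 0 and 2 at an unadjusted p under 0.05. None was called, against 0.00523% of all genes. Mrps14 came nearest at 0.16 (SE 0.0525, adjusted p = 0.379), followed by Mrps12 at 0.16 and Mrpl35 at 0.13. Within WT mice alone the medians were 0.22 in bead and 0.10 in depleted libraries, and within ob/ob mice 0.02 in bead and -0.01 in depleted libraries. No member was called in these, against 0.277% of all genes in WT depleted libraries, 0.0275% in ob/ob bead libraries and 0% in the other sets, and each rests on 1 vehicle or 1 leptin lysate.

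At 3 h in bead libraries (3 leptin, 4 vehicle) the median was 0.06 with 60 of 77 above 0, and 0 members had an unadjusted p under 0.05. None was called, against 0.022% of all genes. Mrpl50 had 137, 87.8 and 118 CPM with leptin and 94.2, 123, 72.2 and 90.5 CPM with vehicle, so the groups overlapped. Its log2 fold change was 0.26 (SE 0.172, adjusted p = 0.727). Mrpl23 at -0.39 and Mrpl21 at 0.18 came next and did not pass. The members' median took either sign: it was -0.02 without the vehicle lysate f1, 0.003 without the leptin lysate m24, 0.12 without the vehicle lysate m3, 0.13 without the leptin lysate f2 and -0.07 with the glial marker level as a term.

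In depleted libraries at 3 h the median was 0.02 with 52 of 77 above 0, and 1 member had an unadjusted p under 0.05; 0% of all genes were called. That member was Mrpl19, with 36.7, 40.8 and 36.8 CPM with leptin and 34.5, 32.2, 35.1 and 35.0 CPM with vehicle. The groups did not overlap, but its log2 fold change of 0.14 (SE 0.0537) had an adjusted p of 0.458. Mrpl51 and Mrps12 followed at 0.12 each.

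With all sets of mice in 1 fit (7 leptin, 7 vehicle lysates), the median was 0.09 in bead libraries with 75 of 77 above 0 and no unadjusted p under 0.05, against 0.022% of all genes called. Mrps31 (0.15, adjusted p = 0.539), Mrpl17 and Mrpl21 came nearest, and did not pass. With the glial marker level in the fit the members' median turned to -0.10, and these 3 to -0.04, -0.09 and -0.07. The median was 0.05 without the WT 3 h vehicle lysate f1 and 0.06 without the WT 10 h vehicle lysate 1. In depleted libraries the median was 0.03 with 66 of 77 above 0, and 4 had an unadjusted p under 0.05. None was called, against 0.623% of all genes. Mrps12 came nearest, at 0.14 (SE 0.0451, adjusted p = 0.148), then Mrpl35 at 0.10 (0.221) and Mrpl51 at 0.09 (0.275). For the difference of the leptin effect between fractions, bead minus depleted, the median was 0.09 at 10 h and 0.03 at 3 h. It was 0.04 at 10 h without the ob/ob vehicle lysate 2, and at 3 h it ran from -0.05 without the vehicle lysate f1 to 0.11 without the leptin lysate f2. None was called, and 2 members at 10 h and 0 at 3 h had an unadjusted p under 0.05, against 0% of all genes called at 10 h and 0.0102% at 3 h.

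Of the mRNAs that these ribosomes translate, mt-Nd1 and mt-Cytb were called lower with leptin in the depleted fraction. These calls were lost in many of the alternatives given below. The 7 testable mRNAs of mitochondrial DNA summed to 7597 CPM in the ob/ob leptin library, against 10165 and 9285 CPM with vehicle. In WT mice at 10 h they summed to 7427, 7934 and 8784 CPM with leptin, against 9219 CPM with vehicle. In WT mice at 3 h the leptin libraries had 6757 to 7341 CPM and the vehicle libraries 7444 to 10843 CPM. Leptin and vehicle did not overlap within any set of mice in this fraction, but no like share of all genes is given. Each 10 h set held only 1 vehicle or 1 leptin library, and the nearest values at 3 h were 7341 and 7444 CPM. In bead libraries leptin and vehicle overlapped in WT mice at 3 h, with 213 to 399 CPM and 218 to 599 CPM. At 10 h they did not, with 153 to 218 against 977 CPM in WT and 103 against 763 and 4034 CPM in ob/ob mice. With all sets of mice in 1 fit of the depleted libraries, 0.534% of all genes were called lower. Of the 7, mt-Nd1 (log2 fold change -0.35, SE 0.0678, adjusted p = 0.0373) and mt-Cytb (-0.35, SE 0.0710, adjusted p = 0.0423) were called lower (edgeR quasi-likelihood test). The median of the 7 was -0.34. The number of calls moved with single lysates: it was 7 without the WT 3 h vehicle lysate m3, 1 without f3, and 0 without any of the ob/ob or WT 10 h lysates or without the WT 3 h lysates m1 (vehicle), f2 or f4 (leptin). The median stayed between -0.39 and -0.30 in these fits. With the glial marker level as a term there were 0 calls and a median of -0.18, and DESeq2 called 7.

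The last comparisons set ob/ob against WT mice at 10 h, and 10 h against 3 h in leptin-treated WT mice. In depleted libraries 3 members were higher and 1 lower in ob/ob than in WT mice, against 2.72% and 2.85% of all genes, so the members' share was close to that background. Mrpl24, of the tunnel exit, had 21.5 CPM in the ob/ob leptin library and 24.3 and 23.3 CPM with vehicle. In WT mice at 10 h it had 29.8, 29.3 and 29.9 CPM with leptin and 27.3 CPM with vehicle. Every ob/ob library was below every WT library, and the log2 fold change was -0.34 (SE 0.0615, adjusted p = 0.00951). In bead libraries Mrpl24 was at -0.42 and did not pass (adjusted p = 0.303).

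Mrpl2, which lies near the catalytic centre, had 52.7 CPM with leptin and 57.7 and 47.6 CPM with vehicle in ob/ob mice. It had 43.8, 42.0 and 42.5 CPM with leptin and 38.9 CPM with vehicle in WT mice. The log2 fold change was 0.36 (SE 0.0722, adjusted p = 0.0130), with no overlap. Mrps26, a small-subunit protein found only in mitochondria, had 84.2 CPM with leptin and 82.8 and 80.1 CPM with vehicle in ob/ob mice. In WT mice it had 74.5, 70.2 and 72.4 CPM with leptin and 67.6 CPM with vehicle. It rose by 0.24 (adjusted p = 0.0151), a call lost without the filter on low counts (adjusted p = 0.0554). Mrps12, at 0.27, was the narrowest call (adjusted p = 0.0420), with 49.1 to 58.4 CPM in ob/ob and 42.9 to 51.3 CPM in WT libraries, which overlapped. That call was lost with voom (adjusted p = 0.0618) and without any of 9 single lysates, with the highest adjusted p, 0.124, without the ob/ob vehicle lysate 1.

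WT mice at 3 h, in another run, had 46.8 to 54.9 CPM of Mrpl2, 78.4 to 84.9 CPM of Mrps26 and 52.0 to 62.2 CPM of Mrps12 in depleted libraries. These levels lay nearer to those of ob/ob mice than to those of WT mice at 10 h. For Mrpl24 they did not: WT mice at 3 h had 27.2 to 30.3 CPM. In bead libraries no member passed between ob/ob and WT mice, and 5 had an unadjusted p under 0.05; 0.126% of all genes were higher and 0.346% lower. Mrpl36 at -0.47 (adjusted p = 0.26), Mrpl24 and Mrpl27 (-0.28) came nearest. Of the other pathway genes Mrrf, which recycles ribosomes, fell by 0.39 (adjusted p = 0.00951) and the rRNA methyltransferase Tfb1m fell by 0.37 in the depleted libraries of ob/ob mice. Gfm2 fell by 0.24 there and the elongation factor Tsfm rose by 0.27. The lists searched held 5 subunits with other names, 15 translation factors, 24 assembly and rRNA modification factors and 17 tRNA synthetases. No result for the pathway is read from these genes, and the share of all genes called in this comparison is given above.

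In leptin-treated WT mice 1 member differed between times in depleted libraries, where 0.528% of all genes did. Mrps21 had 25.3, 24.3 and 23.7 CPM at 10 h and 32.8, 33.9 and 33.4 CPM at 3 h. The log2 fold change, 10 h over 3 h, was -0.45 (SE 0.0756, adjusted p = 0.0346), with no overlap. Leaving out single lysates lost the call in 8 of 14 cases (adjusted p up to 0.218), namely for each of the 6 lysates compared and for the WT 3 h vehicle lysates f3 and m1. Mrps12 at -0.29 (adjusted p = 0.0715) and Mrpl2 at -0.23 (0.127) came next and did not pass. In bead libraries 76 of 77 members were above 0 at 10 h, with a median of 0.21, but 0 were called, against 0.00549% of all genes. Mrps31 (0.38, adjusted p = 0.218), Mrpl41 (0.38) and Mrpl27 (0.31) came nearest. The glial markers of these bead libraries averaged 3.36 to 3.65 on the log2 scale at 10 h and 3.91 to 4.69 at 3 h. With their level in the fit the median was -0.02, and without the WT 3 h leptin lysate f2 it was 0.13.

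**Figure D5:**
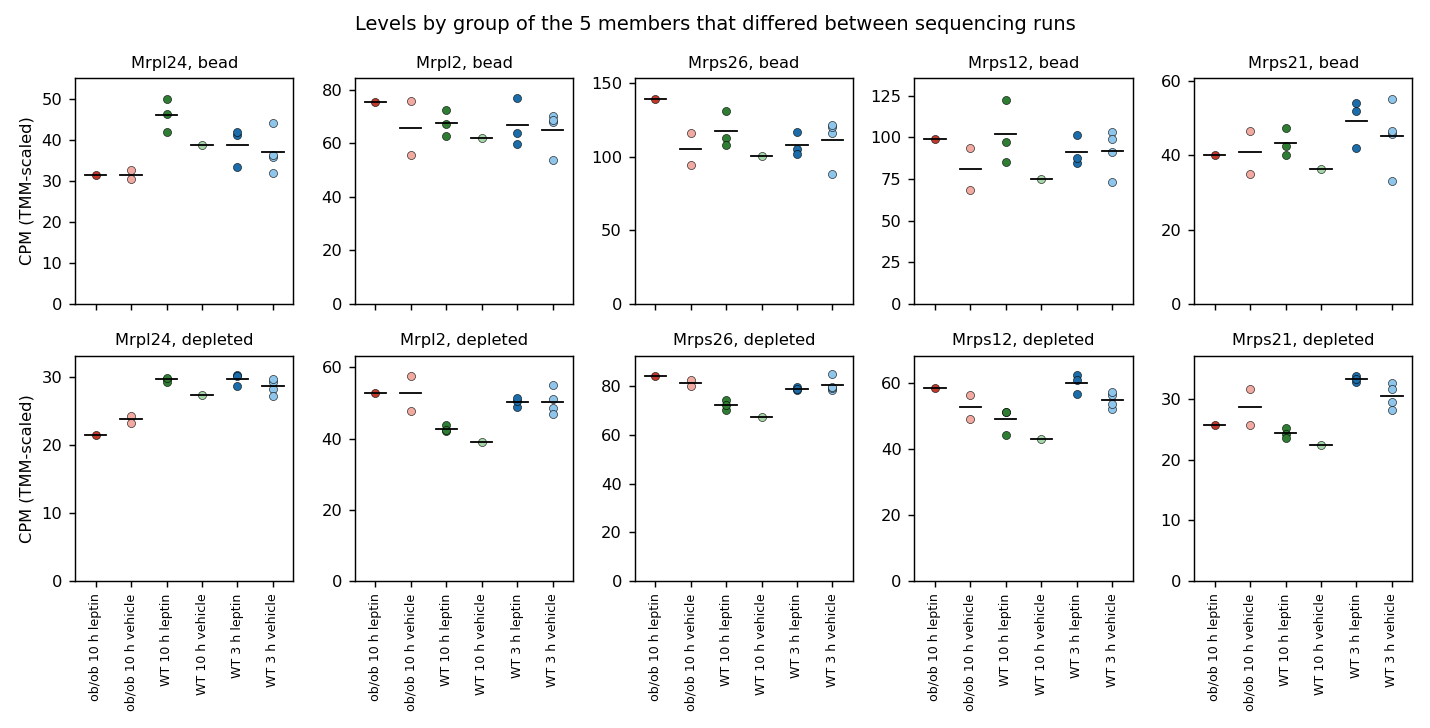
CPM of the 5 members that differed between sets of mice, in bead libraries (top) and depleted libraries (bottom), with 1 point per library and a bar at each group mean. Mrpl24 has its lowest group means in ob/ob mice in both fractions. In the depleted fraction Mrpl2, Mrps26 and Mrps12 have theirs in WT mice at 10 h, and Mrps21 its highest in WT mice at 3 h.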

How the data were processed

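Hypothalamic RNA of RNA integrity 8 or more was made into unstranded polyA libraries and read in 50 single-end cycles, per the labels' protocols. Reads were aligned with STAR 2.7.6a to GRCm38.p6, per the submitters' processing notes; no source used here names the counter, the release of its gene models or how strand was handled. The deposited table holds raw counts per gene. Genes that reached 10 counts in 3 or more libraries were kept, scaled by TMM and fitted with edgeR 4.0.16 (quasi-likelihood test, robust; R 4.3.3), with p-values adjusted by Benjamini-Hochberg over all genes tested, at 0.05. DESeq2 1.42.0 and limma 3.58.1 (voom) served as alternatives. Leptin was compared within fractions with the set of mice as a term. CPM are TMM-scaled, and TPM use the exon lengths of GENCODE M21 (GRCm38).

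Bead and depleted libraries of the same lysate were paired by their titles and fitted with the lysate as a block. Their deviations from the group means correlated by 0.0991 to 0.435 in the 12 lysates that could be checked, each best with its own partner. The 2 ob/ob vehicle lysates mirror each other about their mean and share 1 value, 0.372, so they count as 1 check. Set medians and counts carry no test of their own. Named were the 10 highest and 10 lowest fold changes between fractions, members called in the other comparisons with the 3 lowest p-values, the 5 highest and 5 lowest TPM, and a fixed list by role. The members and lists were chosen with earlier results of these data known.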

Additional observations from a re-analysis of the deposited data

Results flagged for a closer look

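Among the 4 WT 3 h vehicle libraries of each fraction, 14 of 154 member and fraction pairs had 1 library far from the other 3 (Dixon's ratio of gap to range, above its 95% critical value); chance alone gives about 7.7. In the bead fraction 7 of 8 were low values of lysate f1, whose bead library had the highest glial marker level and the highest sum of endothelial markers (84.6 CPM). Mrpl2 had 53.8 CPM there and 67.9 to 70.2 CPM in the others, Mrpl48 50.7 CPM against 60.6 to 61.6, and Mrpl57 44.7 CPM against 62.5 to 64.4. Mrpl58 had 65.6 CPM against 82.2 to 84.0, Mrps10 28.0 CPM against 34.2 to 35.0, Mrps16 40.0 CPM against 54.6 to 57.6, and Mrps26 88.0 CPM against 116 to 122. The eighth was Mrpl35, high in the bead library of lysate m3 at 60.5 CPM, against 49.8 to 50.1 CPM.

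In the depleted fraction the library of lysate f3 had Mrpl20 at 71.4 CPM (others 64.3 to 65.1), Mrpl35 at 43.6 CPM (40.7 to 41.2) and Mrps25 at 49.6 CPM (47.2 to 47.4), all high, and Mrpl36 at 30.0 CPM (31.7 to 31.8), low. Mrpl23 was high in that of f1, at 3.31 CPM (2.77 to 2.84), and Mrpl55 low in that of m3, at 24.7 CPM (29.6 to 30.2). Whether glial RNA has a part in the low values of f1 was not tested.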

How the results depend on the processing

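Of the values recomputed for counts and medians of members, 1031 kept their direction and size under the alternatives tried and 34 moved. Many of these values are counts of calls that stayed at 0. Of the values of single genes 1866 stayed the same, 60 were weaker, 27 stronger, 17 moved and 7 reversed. Without the lysate block 74 members were higher and 1 lower between bead and depleted libraries, with a median of 0.53, and the member lower in WT mice at 3 h was lost (0). Scaling by library totals gave medians of 0.34 for bead over depleted, 0.34 in ob/ob mice, 0.47 in WT mice at 10 h and 0.30 at 3 h, with 4 members lower over all lysates, 1 in WT mice at 10 h and 4 at 3 h. It turned Mrpl37 (-0.11), Mrps27 (-0.13), Mrps5 (-0.10) and, among alternatives added after its value was seen, Ptcd3 (-0.11). The glial marker level as a term gave leptin medians in bead libraries of -0.16 at 10 h and -0.10 over all sets, and of -0.024 for leptin-treated WT mice, 10 h over 3 h. It turned the leptin effect in bead libraries of Mrpl17 (-0.086), Mrpl21 (-0.070) and Mrps31 (-0.038). Without the filter on low counts 1 member passed for leptin at 10 h in bead libraries, Mrps34 (0.75, adjusted p = 0.00152). Members lower at 10 h than at 3 h in depleted libraries of leptin-treated WT mice numbered 2 with the glial term, 2 without the filter, 2 with DESeq2, and 0 without the lysates rich in pituitary RNA. Members higher in ob/ob mice in depleted libraries numbered 5 with DESeq2. Leaving out single lysates gave 0 to 1 members lower in WT mice at 3 h, 0 to 2 lower at 10 h than at 3 h, and 2 to 8 higher and 1 to 2 lower in ob/ob mice; the 8 came without ob/ob vehicle lysate 2. It gave 73 to 74 members higher between fractions (median 0.51 to 0.55), 67 to 73 in WT mice at 3 h and 58 to 68 in ob/ob mice, and leptin medians at 3 h in bead libraries of -0.02 to 0.13. In depleted libraries the leptin medians ran from 0.01 to 0.03 at 3 h, from 0.01 to 0.06 at 10 h and from 0.01 to 0.04 over all sets. Contrasts that need the only WT 10 h vehicle or ob/ob leptin lysate have no value without it. The cause of these shifts was not tested. Among single genes, Mrps5 between fractions, and Mrps12 (adjusted p = 0.0664 with the glial term) and Mrps26 (0.0554 without the filter) between ob/ob and WT mice, lost their calls. The alternatives for mRNAs of mitochondrial DNA and other pathway genes were added after their values were seen. Mrpl53 and Mrpl23 have the lowest counts of the members.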
